A study of Homo sapiens with 24 samples.

Results

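The genes described here are the G1 cyclins, the kinases they switch on and the inhibitors that hold those kinases back. They were taken from a list of 10 symbols by matching each symbol to the probes of an Illumina bead array: the cyclins CCND1, CCND3, CCNE1 and CCNE2, the kinases CDK4, CDK6 and CDK2, and the inhibitors CDKN1B, CDKN2C and CDKN2D. Of these 10 genes, 8 had a probe above background on at least 3 of the 24 arrays and were tested, among 13344 genes tested in all. The only CCNE2 probe was above background on 0 of the 24 arrays, with intensities between 82 and 110.6, so that no level of CCNE2 is given. CDKN2C was not analysed here.

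A cell that has divided must pass a decision point in G1 before it copies its DNA. D-type cyclins bind CDK4 and CDK6, cyclin E binds CDK2, and both kinase pairs phosphorylate the retinoblastoma protein, which then releases E2F factors that switch on the genes of DNA synthesis, CCNE1 and CDK2 among their known targets. The INK4 inhibitors, of which CDKN2D (p19INK4d) is a member, block CDK4 and CDK6, while CDKN1B (p27Kip1) binds cyclin and kinase together and is best known as a brake on cyclin E with CDK2. In prostate cancer, low p27Kip1 protein has long been studied as a marker of aggressive disease, and its amount is set largely by ubiquitin-dependent breakdown, which an RNA measurement does not see.

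The cells were PC3 and LNCaP, human prostate cancer lines from ATCC. PC3 came from a bone metastasis and lacks androgen receptor signalling, while LNCaP came from a lymph node metastasis and responds to androgen. In each line 3 arrays were made from cells given Siomycin A for 24 h, 3 from cells given DMSO, the solvent, for 24 h, 3 from cells given Siomycin A for 48 h and 3 from cells given DMSO for 48 h. Siomycin A is a thiazole antibiotic known as an inhibitor of the proteasome and of the transcription factor FOXM1. The protocol gives a dose of 0.5 microM while the sample titles give 5 microM, and the labels do not settle which was used. The lines were grown in different media, an RPMI medium for PC3 and HAMs F12 for LNCaP, so that line and medium cannot be told apart, and both media held serum. No label says whether the 3 arrays of a group stem from separate cultures, and the spread behind each p-value may therefore be technical.

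The arrays could be placed in their lines by their markers: 10 of 10 PC3 marker genes and 7 of 8 LNCaP marker genes were higher on every array of their own line than on every array of the other, the exception being HOXB13. The fibroblast gene COL1A1 had mean log2 levels of 5.19 in PC3 and 5.14 in LNCaP, close to background, and no probe of the leukocyte gene PTPRC was kept. All 24 arrays correlated best with an array of their own group. Mean intensities per array ranged from 314.4 to 498.8, and the dimmest array was replicate 3 of PC3 with Siomycin at 48 h. The log2 fold change of FOXM1, Siomycin over DMSO, was -0.58 ± 0.12 (SE, adjusted p = 0.0011) at 24 h and -0.20 ± 0.12 (adjusted p = 0.18) at 48 h in PC3. In LNCaP it was -0.78 ± 0.12 (adjusted p = 5.1e-05) at 24 h and -1.38 ± 0.12 (adjusted p = 1.3e-08) at 48 h. The PC3 calls depended on the scaling. With arrays centred on their medians, FOXM1 and the kinase gene MELK were both called lower in PC3 at 48 h, with a median of -0.63. At 24 h such centring left 1 of these 2 genes called lower in PC3, where quantile normalization called both. The PC3 control itself moved: in the DMSO cultures both genes were called lower at 48 h than at 24 h, with a median of -0.62. In that comparison 28.3% of all genes were called. Levels below are log2 intensities after background correction and quantile normalization, fold changes are Siomycin over DMSO on the log2 scale with limma's standard error, and a gene is called changed where the adjusted p over all 13344 genes is under 0.05.

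The DNA just upstream of 3 of the genes is shown because results below turn on them: CDK4 was lower under Siomycin in both lines at both times, CDKN1B was higher at 48 h in both lines, and CDKN2D had the largest rise of the set. RefSeq's promoter table (GRCh38.p14) held 12 promoters for 7 of the 10 genes. Each window is the 250 bases before the transcript start, written 5′ to 3′ on the gene's strand, with capitals for a CCAAT box (CCAAT), a GC box (GGGCGG) or an E-box (CACGTG), each on either strand.
CDK4, chr12:57752311-57752560, minus strand: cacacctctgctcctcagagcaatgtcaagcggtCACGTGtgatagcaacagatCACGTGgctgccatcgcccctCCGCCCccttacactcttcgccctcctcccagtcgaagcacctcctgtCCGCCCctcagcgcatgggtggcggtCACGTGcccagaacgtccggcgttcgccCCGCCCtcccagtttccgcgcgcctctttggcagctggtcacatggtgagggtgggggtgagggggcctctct
CDKN1B, chr12:12717118-12717367, plus strand: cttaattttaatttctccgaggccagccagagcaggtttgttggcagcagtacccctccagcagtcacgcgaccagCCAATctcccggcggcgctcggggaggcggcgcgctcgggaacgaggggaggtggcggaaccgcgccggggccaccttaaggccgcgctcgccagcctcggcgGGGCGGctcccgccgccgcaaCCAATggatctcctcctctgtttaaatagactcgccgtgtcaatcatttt
CDKN2D, chr19:10568980-10569229, minus strand: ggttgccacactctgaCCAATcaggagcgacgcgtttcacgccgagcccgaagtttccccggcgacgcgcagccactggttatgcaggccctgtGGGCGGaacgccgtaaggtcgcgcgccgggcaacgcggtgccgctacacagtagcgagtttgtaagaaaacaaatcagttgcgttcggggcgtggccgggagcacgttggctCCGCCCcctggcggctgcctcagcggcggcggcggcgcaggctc
The CDK4 window held 3 E-boxes, the letters bound by MYC and its relatives, at 216 to 211, 196 to 191 and 101 to 96 bases before the start, together with 3 GC boxes. An E-box stood in 6.34% of all 35116 promoters of the table. The CDKN1B window held 2 CCAAT boxes, at 174 to 170 and 50 to 46 bases before the start, and 1 GC box. The CDKN2D window held 1 CCAAT box and 2 GC boxes. CCAAT stood in 32.0% and the GC box in 42.6% of all promoters of that length. The forkhead word TGTTTAC (2.98% of all promoters) and 4 spellings of the E2F word, TTTCCCGC, TTTCGCGC, TTTGCCGC and TTTGGCGC (2.79%), were not in the 250-base windows of these 3 genes on either strand. Nor were they in the windows of the other promoters held for these genes, that of the known E2F target CCNE1 included. A match is a run of letters and not a site shown to be bound.

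**Figure D1:**
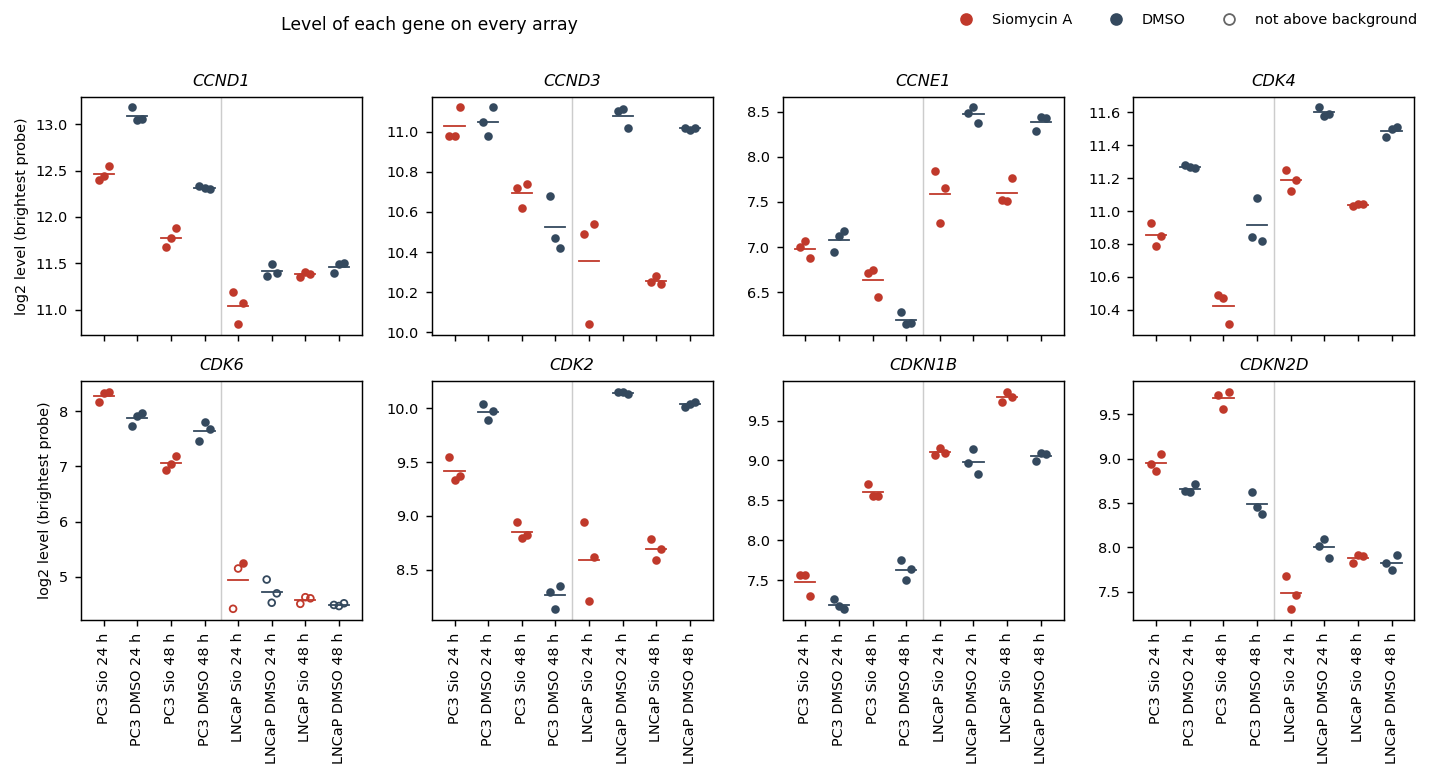
Log2 level of the 8 measured genes on every array (y axis), by cell line, treatment and time (x axis). Points are single arrays, filled where the probe was above background and open where it was not, and bars are group means. CDK4 lay lower on all Siomycin arrays than on the DMSO arrays of the same line and time, and CDK6 was above background on 12 PC3 arrays and 1 LNCaP array.

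The DMSO cultures show what each line expressed without the compound. At 24 h, PC3 and LNCaP differed in 6 of the 8 genes, 3 higher and 3 lower in PC3, when 60.9% of all genes differed. CCND1, the cyclin D1 gene, had log2 levels of 13.18, 13.04 and 13.06 in PC3, against 11.36, 11.49 and 11.39 in LNCaP. All PC3 arrays stood above all LNCaP arrays, and the difference of 1.68 ± 0.08 (adjusted p = 3.3e-13) is 3.21-fold. CDK6 was at 7.73, 7.91 and 7.97 in PC3 and was not well above background on any DMSO array of LNCaP, so it was at least 8.23-fold higher in PC3 (adjusted p = 3.6e-13). That bound sets the mean of the PC3 arrays against the higher, on each LNCaP array, of the probe's own signal and the lowest signal well above background. Its size depends on the background correction, without which the log2 difference was 1.53.

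The other differences between the lines ran in both directions. CDKN1B had log2 levels of 7.26, 7.17 and 7.14 in PC3, against 8.97, 9.14 and 8.83 in LNCaP, without overlap (-1.79 ± 0.09, adjusted p = 5.8e-13). CCNE1, the cyclin E1 gene, averaged 7.09 ± 0.12 in PC3 and 8.47 ± 0.08 in LNCaP (SD, n = 3 each), a difference of -1.39 ± 0.12 (adjusted p = 3.3e-09). CDKN2D was higher in PC3 by 0.66 ± 0.10 (adjusted p = 4.1e-06). CDK4 was lower in PC3 by a smaller step, -0.33 ± 0.07 (adjusted p = 7e-04), and this call was lost when arrays were centred on their medians (-0.28, adjusted p = 0.18). CCND3 (-0.03 ± 0.10, adjusted p = 0.82) and CDK2 (-0.18 ± 0.12, adjusted p = 0.23) were not called different.

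Siomycin was then compared with DMSO within a line and a time. In PC3 at 24 h, 5 of the 8 genes were called, 2 higher and 3 lower, when 23% of all genes were called, and the median fold change of the 8 was -0.06 against 0 for all genes. In PC3 at 48 h, 7 of 8 were called, 4 higher and 3 lower, when 45.8% of all genes were called, with a median of 0.30 against -0.04. In LNCaP at 24 h, 6 of 8 were called, all 6 lower, when 20.8% of all genes were called, with a median of -0.46 against 0.02. In LNCaP at 48 h, 5 of 8 were called, 1 higher and 4 lower, when 37.4% of all genes were called, with a median of -0.27 against 0.01. With each array left out in turn, the dimmest one included, PC3 at 48 h still had 7 members called, while PC3 at 24 h had 3 to 4. With arrays centred on their medians, 2 members were called in PC3 at 24 h and 5 in PC3 at 48 h, CDKN1B and CDKN2D higher and CCND1, CDK4 and CDK6 lower. CDK4 was the only one of the 8 called in the same direction in all 4 comparisons. RNA from a whole culture cannot tell fewer cells that carry a transcript from less transcript per cell.

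**Figure D2:**
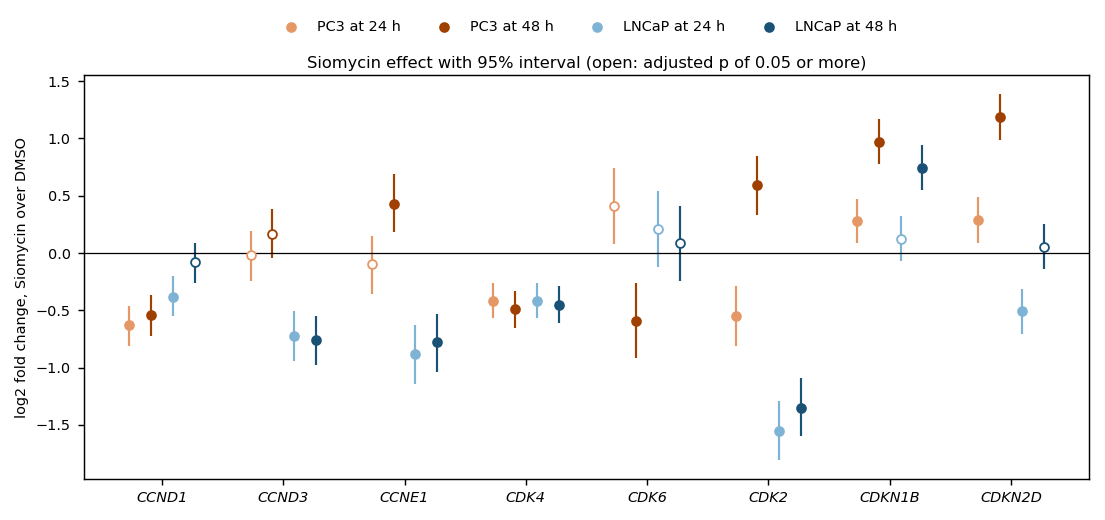
Log2 fold change, Siomycin over DMSO (y axis), of the 8 measured genes (x axis) in PC3 and LNCaP at 24 h and 48 h, with limma's 95% interval. Filled points passed an adjusted p of 0.05. CDK2 stood at 0.59 in PC3 at 48 h and at -1.35 in LNCaP at 48 h, while CDK4 lay between -0.49 and -0.42 throughout. The CDK6 points of LNCaP rest on arrays nearly all below background.

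Of the D-type cyclins, CCND1 was lower under Siomycin in PC3 at both times and in LNCaP at 24 h. In PC3 at 24 h it had log2 levels of 12.40, 12.44 and 12.55 with Siomycin, against 13.18, 13.04 and 13.06 with DMSO. At 48 h the levels were 11.67, 11.77 and 11.88 with Siomycin, against 12.33, 12.31 and 12.30 with DMSO. The groups did not overlap at either time, and the fold changes were -0.63 ± 0.08 (adjusted p = 1.4e-05) at 24 h and -0.54 ± 0.08 (adjusted p = 2e-05) at 48 h, that is a fall to 0.645 and 0.687 of the DMSO level. In LNCaP at 24 h it stood at 11.19, 10.84 and 11.07 with Siomycin, against 11.36, 11.49 and 11.39 with DMSO, a fall as well (-0.38 ± 0.08, adjusted p = 0.0024). The difference between the lines at 24 h, PC3 minus LNCaP, was not called (-0.26 ± 0.12, adjusted p = 0.17). By 48 h the LNCaP groups overlapped at 11.35, 11.41 and 11.38 with Siomycin and 11.39, 11.49 and 11.50 with DMSO (-0.08 ± 0.08, adjusted p = 0.51, 95% interval -0.26 to 0.09).

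CCND3, the cyclin D3 gene, changed only where the line was LNCaP among the comparisons of Siomycin with DMSO at the same time. Its LNCaP levels at 24 h were 10.49, 10.04 and 10.54 with Siomycin, against 11.10, 11.11 and 11.02 with DMSO. At 48 h they were 10.25, 10.28 and 10.24 with Siomycin, against 11.02, 11.01 and 11.02 with DMSO. Every Siomycin array lay below every DMSO array, and the fold changes were -0.72 ± 0.10 (adjusted p = 2.4e-05) at 24 h and -0.76 ± 0.10 (adjusted p = 5.5e-06) at 48 h. In PC3 the groups overlapped at both times, with fold changes of -0.02 ± 0.10 (adjusted p = 0.92) at 24 h and 0.17 ± 0.10 (adjusted p = 0.19) at 48 h. The difference between the lines was itself past the test, at 0.70 ± 0.14 (adjusted p = 0.0024) at 24 h and 0.93 ± 0.14 (adjusted p = 2.8e-05) at 48 h, PC3 minus LNCaP.

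CDK4, the kinase that D-type cyclins switch on, was lower under Siomycin in both lines. In PC3 it had log2 levels of 10.93, 10.79 and 10.85 with Siomycin at 24 h, against 11.28, 11.27 and 11.26 with DMSO. In LNCaP it had 11.25, 11.12 and 11.19 with Siomycin at 24 h, against 11.63, 11.58 and 11.59 with DMSO. No groups overlapped, at 24 h or at 48 h, and the Siomycin level was between 0.713 and 0.750 of the DMSO level in the 4 comparisons. The fold changes were -0.42 ± 0.07 in PC3 at 24 h and the same in LNCaP at 24 h (adjusted p = 3.6e-04 in each), and for the later time -0.49 ± 0.07 in PC3 (adjusted p = 1.8e-05) and -0.45 ± 0.07 in LNCaP (adjusted p = 6.6e-05). The difference between the lines was 0.00 at 24 h with a 95% interval from -0.22 to 0.22, and -0.04 at 48 h with an interval from -0.26 to 0.18. With arrays centred on their medians the size of the 24 h change was -0.42 in PC3 (adjusted p = 0.13) and -0.50 in LNCaP (adjusted p = 0.061), past the threshold in neither.

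CDK6, the other partner of the D-type cyclins, was read in PC3 alone, since its probe was above background on all 12 PC3 arrays and on 1 of 12 LNCaP arrays. At 24 h its levels were 8.17, 8.33 and 8.35 with Siomycin, against 7.73, 7.91 and 7.97 with DMSO. At 48 h they were 6.93, 7.05 and 7.19 with Siomycin, against 7.46, 7.80 and 7.67 with DMSO. Siomycin arrays were thus the higher ones at 24 h and the lower ones at 48 h. The 24 h difference of 0.41 ± 0.16 missed the threshold (adjusted p = 0.068) and passed it without background correction (0.30, adjusted p = 0.0076). At 48 h CDK6 fell by 0.59 ± 0.16 (adjusted p = 0.0043), and the change of the effect between the times was -1.0 ± 0.22 (adjusted p = 0.0023).

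CCNE1 and CDK2, the cyclin and kinase that act after the D-type pairs, fell in LNCaP at both times. CDK2 had log2 levels of 8.94, 8.21 and 8.62 in LNCaP with Siomycin at 24 h, against 10.15, 10.15 and 10.13 with DMSO. At 48 h it had 8.79, 8.59 and 8.69 with Siomycin, against 10.01, 10.04 and 10.06 with DMSO. All Siomycin arrays were more than a log2 unit below all DMSO arrays of their time. The CDK2 fold changes were -1.55 ± 0.12 (adjusted p = 1e-08) at 24 h and -1.35 ± 0.12 (adjusted p = 3.3e-08) at 48 h, a fall to 0.342 and 0.393 of the DMSO level. These were the largest falls among the 8 genes in the 4 comparisons. CCNE1 averaged 7.59 ± 0.29 with Siomycin and 8.47 ± 0.08 with DMSO at 24 h (SD, n = 3 each). At 48 h it averaged 7.60 ± 0.15 with Siomycin and 8.39 ± 0.08 with DMSO. The groups did not overlap, and the CCNE1 fold changes were -0.88 ± 0.12 (adjusted p = 1.9e-05) at 24 h and -0.78 ± 0.12 (adjusted p = 3.1e-05) at 48 h.

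In PC3 the same pair behaved otherwise. At 24 h CDK2 had log2 levels of 9.55, 9.33 and 9.37 with Siomycin, against 10.04, 9.89 and 9.97 with DMSO, a fall of 0.55 ± 0.12 (adjusted p = 0.0025). At 48 h it had 8.94, 8.80 and 8.82 with Siomycin, against 8.30, 8.14 and 8.35 with DMSO, so that Siomycin arrays were now the higher ones. The 48 h difference was 0.59 ± 0.12 (adjusted p = 5e-04). CCNE1 had 6.71, 6.74 and 6.44 with Siomycin at 48 h, against 6.28, 6.14 and 6.16 with DMSO, which is also higher without overlap (0.43 ± 0.12, adjusted p = 0.0061). At 24 h the CCNE1 groups overlapped (-0.10 ± 0.12, adjusted p = 0.64). Both 48 h calls in PC3 were lost with arrays centred on their medians, at 0.18 for CDK2 (adjusted p = 0.46) and 0.07 for CCNE1 (adjusted p = 0.80), and with all kept probes of a gene averaged, at 0.33 for CDK2 (adjusted p = 0.11) and 0.36 for CCNE1 (adjusted p = 0.092). Median centring moved the median of all genes in that comparison to -0.21 from -0.04 with quantile normalization, and the calls over all genes to 844 higher and 4509 lower, against 2598 higher and 3507 lower.

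The DMSO cultures of PC3 themselves changed between the times, and this bears on how the 48 h comparison reads. Between 48 h and 24 h of DMSO, 6 of the 8 genes were called in PC3, 1 higher and 5 lower, when 28.3% of all genes were called. The log2 difference, 48 h minus 24 h, was -1.70 ± 0.12 for CDK2 (adjusted p = 2.8e-09), -0.89 ± 0.12 for CCNE1 (adjusted p = 1.3e-05) and -0.78 ± 0.08 for CCND1 (adjusted p = 6e-07). It was -0.52 ± 0.10 for CCND3 (adjusted p = 5.3e-04) and -0.36 ± 0.07 for CDK4 (adjusted p = 0.001). CDKN1B was higher at 48 h by 0.44 ± 0.09 (adjusted p = 0.001), a call that median centring lost (0.22, adjusted p = 0.42). The other CDKN1B probe, whose groups overlapped, gave 0.06 ± 0.14 (adjusted p = 0.83). CDKN2D was not called (-0.17, adjusted p = 0.20) and passed the threshold under median centring (-0.39, adjusted p = 0.046). The mean intensity of the PC3 DMSO arrays was 378 to 443 at 48 h and 441.5 to 479.2 at 24 h, and what part this has in the differences was not tested. In LNCaP the same comparison called 0 of the 8 genes with limma, when 0.547% of all genes were called, and 0 of the 8 had an unadjusted p under 0.05. No other tool was run.

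Set against the 24 h DMSO arrays, the PC3 Siomycin cultures of 48 h had less CDK2, CCNE1 and CCND3, the reverse of the sign against the 48 h DMSO arrays. CDK2 then stood at -1.11 (adjusted p = 2.4e-07) in place of 0.59, CCNE1 at -0.46 (adjusted p = 0.0039) in place of 0.43, and CCND3 at -0.36 (adjusted p = 0.0067) in place of 0.17. So the level of CDK2 in the PC3 Siomycin cultures at 48 h, 8.85 ± 0.07, lay between that of the DMSO cultures at 48 h, 8.27 ± 0.11, and that of the DMSO cultures at 24 h, 9.96 ± 0.07 (SD, n = 3 each). The other 5 genes kept their sign and their call, CCND1 at -1.32 (adjusted p = 8.9e-11), CDK4 at -0.85 (adjusted p = 1.1e-08), CDK6 at -0.81 (adjusted p = 2.2e-04), CDKN1B at 1.42 (adjusted p = 1.4e-10) and CDKN2D at 1.02 (adjusted p = 2.4e-08). In LNCaP the choice of DMSO control changed no call.

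**Figure D3:**
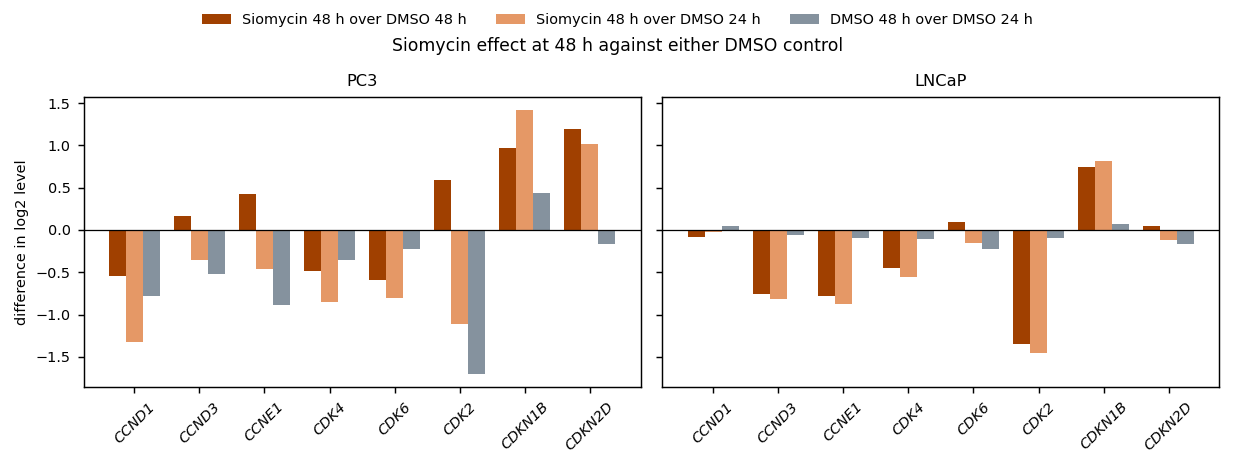
Difference in log2 level (y axis) of the 8 measured genes (x axis) in PC3 and in LNCaP: Siomycin at 48 h over DMSO at 48 h, Siomycin at 48 h over DMSO at 24 h, and DMSO at 48 h over DMSO at 24 h. In PC3 the bars for CDK2 stand at 0.59, -1.11 and -1.70, and in LNCaP those for CDK2 stand at -1.35, -1.45 and -0.10.

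Both measured inhibitors were higher under Siomycin in PC3. CDKN1B had log2 levels of 8.71, 8.55 and 8.56 with Siomycin at 48 h, against 7.75, 7.50 and 7.64 with DMSO. CDKN2D had 9.72, 9.56 and 9.75 with Siomycin at 48 h, against 8.62, 8.45 and 8.38 with DMSO. Neither pair of groups overlapped, and the rises were 0.97 ± 0.09 for CDKN1B (adjusted p = 3.5e-08) and 1.19 ± 0.10 for CDKN2D (adjusted p = 3.2e-09), 1.96-fold and 2.28-fold. Median centring kept both calls at smaller sizes, 0.54 for CDKN1B (adjusted p = 0.012) and 0.82 for CDKN2D (adjusted p = 2.1e-05). Those of CDKN1B and CDKN2D were the largest rises among the 8 genes in PC3 at 48 h. At 24 h the same genes were higher by 0.28 ± 0.09 (CDKN1B, adjusted p = 0.032) and 0.29 ± 0.10 (CDKN2D, adjusted p = 0.030). These 24 h calls did not hold: the CDKN1B call was lost without Siomycin replicate 1 or 2 or DMSO replicate 2 or 3 (0.23 to 0.27, adjusted p up to 0.14), and the CDKN2D call without Siomycin replicate 1 or 3 or DMSO replicate 1 or 2 (0.24 to 0.30, adjusted p up to 0.14). The effect grew from 24 h to 48 h by 0.69 ± 0.13 for CDKN1B (adjusted p = 5e-04) and 0.90 ± 0.13 for CDKN2D (adjusted p = 5e-05). Under median centring the growth of CDKN2D was 0.54, just past the threshold (adjusted p = 0.049), and that of CDKN1B was not called (0.27, adjusted p = 0.50).

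In LNCaP the inhibitors parted. CDKN1B had log2 levels of 9.73, 9.86 and 9.79 with Siomycin at 48 h, against 8.99, 9.09 and 9.08 with DMSO, a rise of 0.74 ± 0.09 or 1.68-fold (adjusted p = 2e-06). At 24 h its groups overlapped at 9.07, 9.16 and 9.09 with Siomycin and 8.97, 9.14 and 8.83 with DMSO (0.12 ± 0.09, adjusted p = 0.40). CDKN2D had 7.68, 7.31 and 7.47 with Siomycin at 24 h, against 8.02, 8.10 and 7.88 with DMSO, a fall of 0.51 ± 0.10 (adjusted p = 4.9e-04). At 48 h the CDKN2D groups overlapped at 7.83, 7.92 and 7.90 with Siomycin and 7.82, 7.75 and 7.91 with DMSO (0.05 ± 0.10, adjusted p = 0.72, 95% interval -0.14 to 0.25). The late rise of CDKN1B did not differ between the lines beyond the test (0.23 ± 0.13, adjusted p = 0.17, 95% interval -0.04 to 0.50), while that of CDKN2D did (1.14 ± 0.13, adjusted p = 1e-06).

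The difference between the lines, PC3 minus LNCaP, was tested for each gene. At 24 h it was called for 4 of the 8 genes, all with positive values, when 14.2% of all genes were called. These were CDK2 at 1.00 ± 0.17 (adjusted p = 5e-04), CDKN2D at 0.80 ± 0.13 (adjusted p = 3.4e-04), CCNE1 at 0.78 ± 0.17 (adjusted p = 0.0041) and CCND3. All 4 were called lower in LNCaP at that time. In PC3 CDK2 fell less (-0.55), CCND3 and CCNE1 were not called, and CDKN2D had a rise whose call did not hold. The CCNE1 call for the difference was lost with all kept probes averaged (0.65, adjusted p = 0.079). At 48 h it was called for 6 of the 8, 4 positive and 2 negative, when 43.2% of all genes were called. CDK2 led at 1.94 ± 0.17 (adjusted p = 2.6e-08), ahead of CCNE1 at 1.22 ± 0.17 (adjusted p = 9.5e-06), while CCND1 stood at -0.46 ± 0.12 (adjusted p = 0.0034, and -0.38 with an adjusted p of 0.15 under median centring) and CDK6 at -0.67 ± 0.22 (adjusted p = 0.019). The CDK6 value sets a measured effect in PC3 against arrays of LNCaP that are nearly all below background. It fell short of the threshold without replicate 2 of the PC3 DMSO arrays of 48 h (-0.60, adjusted p = 0.052). For CDK2, CCNE1 and CCND3 at 48 h the PC3 side of this difference changes sign with the DMSO control, as given above.

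The difference between the times, 48 h minus 24 h, was called in PC3 for 5 of the 8 genes, 4 positive and 1 negative, when 25.1% of all genes were called. CDK2 had the greatest positive value, 1.14 ± 0.17 (adjusted p = 6e-05), and CCNE1 followed the same direction at 0.54 ± 0.17 (adjusted p = 0.027). The mean levels of both were lower at 48 h than at 24 h with either treatment. CDK2 went from 9.42 to 8.85 with Siomycin and from 9.96 to 8.27 with DMSO. CCNE1 went from 6.98 to 6.63 with Siomycin and from 7.09 to 6.19 with DMSO. The CCNE1 call did not last when single PC3 arrays were left out (0.48 to 0.52 in the 7 cases that lost it, adjusted p up to 0.068). It was also lost with median centring (0.18, adjusted p = 0.67), with all kept probes averaged (0.29, adjusted p = 0.44) and without background correction (0.27, adjusted p = 0.073). In LNCaP the difference was called for 2 of the 8, both positive, when 8.9% of all genes were called: CDKN1B at 0.62 ± 0.13 (adjusted p = 0.0049) and CDKN2D at 0.57 ± 0.13 (adjusted p = 0.011). Median centring left neither called, at 0.57 for CDKN1B (adjusted p = 0.32) and 0.51 for CDKN2D (adjusted p = 0.26). CDK4 differed between the times in neither line, at -0.07 ± 0.11 in PC3 (adjusted p = 0.69) and -0.03 ± 0.11 in LNCaP (adjusted p = 0.89).

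Of the 8 genes, 3 had another kept probe, which gives a separate reading of the same transcript. Adjusted over 25215 kept probes, 15% of all probes were called in PC3 at 24 h, 35.6% in PC3 at 48 h, 14.1% in LNCaP at 24 h and 28.4% in LNCaP at 48 h. The other CDKN1B probe, ILMN_2196347, rose by 1.06 ± 0.14 (adjusted p = 4.6e-06) in PC3 and by 1.14 ± 0.14 (adjusted p = 2.9e-06) in LNCaP at 48 h, beside 0.97 and 0.74 for the brighter probe ILMN_1722811. At 24 h ILMN_2196347 was not called in PC3 (0.25 ± 0.14, adjusted p = 0.29) or in LNCaP (0.35 ± 0.14, adjusted p = 0.12). The other CDK2 probe, ILMN_1653443, fell in LNCaP too, with fold changes of -0.88 ± 0.23 (adjusted p = 0.012) at 24 h and -0.71 ± 0.23 (adjusted p = 0.023) at 48 h, beside -1.55 and -1.35 for ILMN_1665559. Its groups overlapped at 24 h, where the highest Siomycin array stood at 6.83 and the lowest DMSO array at 6.76. In PC3 at 24 h ILMN_1653443 was not called (-0.41 ± 0.23, adjusted p = 0.28), beside -0.55 for ILMN_1665559, though its groups did not overlap. In PC3 at 48 h this dimmer CDK2 probe stood at 6.06, 5.88 and 6.11 with Siomycin and at 5.80, 6.21 and 5.84 with DMSO, with no call (0.07 ± 0.23, adjusted p = 0.86), so that the CDK2 rise there rests on the brighter probe. The dimmer probe's difference between the lines, PC3 minus LNCaP, was 0.78 ± 0.32 (adjusted p = 0.074) at 48 h and 0.47 ± 0.32 (adjusted p = 0.47) at 24 h, and its difference between the times in PC3 was 0.48 ± 0.32 (adjusted p = 0.37), none of them past the threshold. The other CCNE1 probe, ILMN_1733419, was above background on 5 of the 24 arrays and gives no reading of the change. A further CDKN2D probe, ILMN_1740597, was above background on 0 arrays.

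The rest of the G1 machinery was described through a list of 16 further regulators, chosen with results of these data known. Siomycin left 3 higher and 3 lower in PC3 at 24 h, 3 higher and 6 lower in PC3 at 48 h, 1 higher and 3 lower in LNCaP at 24 h, and 3 higher and 3 lower in LNCaP at 48 h, with medians of -0.05, -0.23, -0.10 and 0.04. Of all genes, 23%, 45.8%, 20.8% and 37.4% were called in these comparisons. Median centring gave 2 higher and 1 lower, 1 higher and 6 lower, 0 higher and 3 lower, and 2 higher and 3 lower, in the same order. The other inhibitors of the same families were called in some comparisons and not in others. CDKN1A (p21Cip1), a relative of CDKN1B, rose by 1.11 ± 0.12 (adjusted p = 1.8e-06) in PC3 at 24 h and by 1.38 ± 0.12 (adjusted p = 2.5e-08) in LNCaP at 48 h. It was not called in PC3 at 48 h (0.16 ± 0.12, adjusted p = 0.31) or in LNCaP at 24 h (0.33 ± 0.12, adjusted p = 0.068). CDKN1C (p57Kip2) rose by 1.63 ± 0.26 (adjusted p = 2.4e-05) in PC3 at 48 h. It was called higher in PC3 at 24 h too, with mean levels of 6.59 with Siomycin and 5.78 with DMSO. CDKN2B, the INK4 inhibitor p15, fell by 2.60 ± 0.16 in PC3 at 48 h (adjusted p = 8.8e-11). Its level there was 7.50 ± 0.15 with Siomycin, against 10.10 ± 0.01 with DMSO at 48 h and 7.64 ± 0.08 with DMSO at 24 h (SD, n = 3 each), so that the 48 h DMSO arrays were the ones that stood apart. CDC25A, the phosphatase that activates cyclin E with CDK2, fell in LNCaP, with fold changes of -1.67 ± 0.16 (adjusted p = 1.9e-07) at 24 h and -2.31 ± 0.16 (adjusted p = 8.8e-10) at 48 h. RBL1, the retinoblastoma relative p107, was called lower in the 4 comparisons, with a fold change of -0.81 ± 0.16 (adjusted p = 9.8e-04) in PC3 at 24 h. Its probe was not well above background on any Siomycin array of the other 3 comparisons, so it was at least 1.64-fold lower in PC3 at 48 h (adjusted p = 2e-04), at least 2.54-fold lower in LNCaP at 24 h (adjusted p = 2.2e-06) and at least 2.68-fold lower in LNCaP at 48 h (adjusted p = 3e-07).

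Parts of the ubiquitin machinery that breaks down G1 regulators were taken as another list of 16 genes. It had 2 higher and 3 lower in PC3 at 24 h, 4 higher and 5 lower in PC3 at 48 h, 1 higher and 4 lower in LNCaP at 24 h, and 2 higher and 4 lower in LNCaP at 48 h, with medians of 0.06, 0.01, 0.01 and -0.08. The shares of all genes called were 23%, 45.8%, 20.8% and 37.4%. Median centring gave 0 higher and 2 lower, 2 higher and 6 lower, 0 higher and 4 lower, and 0 higher and 3 lower, in the same order. SKP2, the F-box protein that marks p27Kip1 for breakdown, fell in all 4. Its fold changes were -0.66 ± 0.09 (adjusted p = 3.7e-05) and -0.71 ± 0.09 (adjusted p = 3.4e-06) in PC3 at 24 h and 48 h, and -0.98 ± 0.09 (adjusted p = 1.6e-07) and -1.01 ± 0.09 (adjusted p = 4.4e-08) in LNCaP at 24 h and 48 h. CKS1B, its cofactor, fell by 1.37 ± 0.08 in LNCaP at 24 h (adjusted p = 1.3e-10). FBXO4, an F-box protein linked to cyclin D1 breakdown, fell in PC3, with fold changes of -1.32 ± 0.10 (adjusted p = 7.2e-09) at 24 h and -2.14 ± 0.10 (adjusted p = 9.1e-13) at 48 h, where 1 of the 3 Siomycin arrays was above background. GSK3B, the kinase that phosphorylates cyclin D1 ahead of its export and breakdown, rose by 0.81 ± 0.07 in PC3 at 48 h (adjusted p = 5.9e-09). DTL had the list's largest called rise there, with mean levels of 7.76 with Siomycin and 6.55 with DMSO. Its mean level with DMSO at 24 h was 8.21, above both. In LNCaP DTL had the list's largest called fall at each time.

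**Figure D4:**
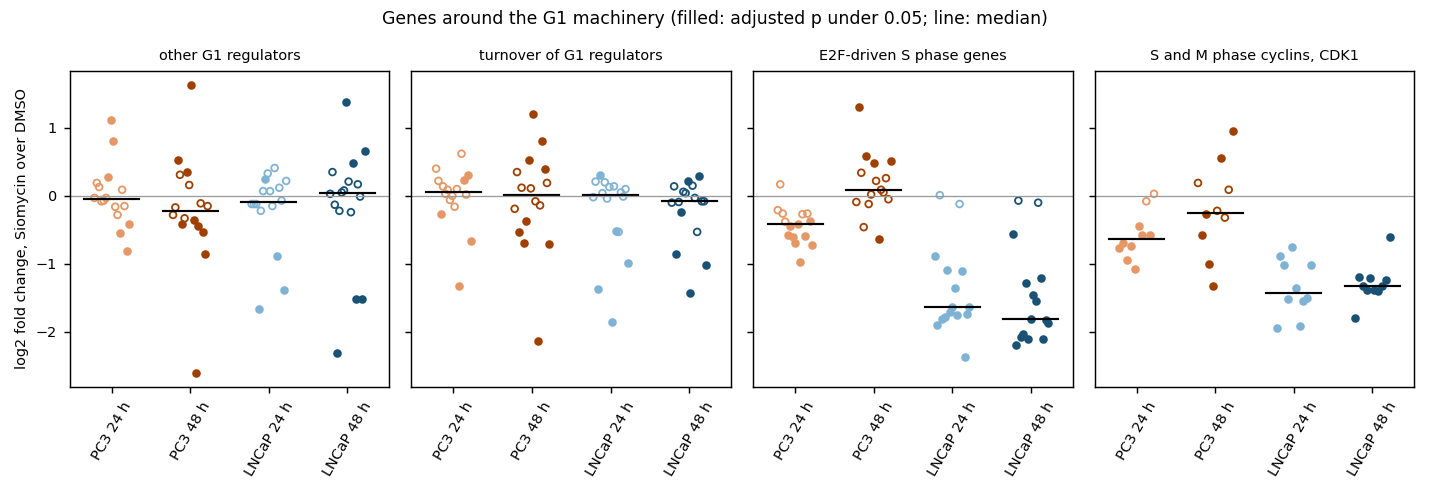
Log2 fold change, Siomycin over DMSO (y axis), of the genes of 4 lists around the G1 machinery, in PC3 and LNCaP at 24 h and 48 h (x axis). Each point is a gene, filled where its adjusted p was under 0.05, and the line is the median. In LNCaP the E2F-driven genes had medians of -1.64 and -1.81, and in PC3 at 48 h their median was 0.09.

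The genes of DNA synthesis that G1 kinases release through E2F made a list of 16, of which 15 were tested. Of these, 13 were lower and 0 higher with Siomycin in LNCaP at each time, with medians of -1.64 at 24 h and -1.81 at 48 h. In PC3 at 24 h 9 were lower and 0 higher, with a median of -0.42. In PC3 at 48 h 4 were higher and 1 lower, with a median of 0.09, while median centring gave 1 higher and 1 lower and turned the median to -0.06. Of all genes, 20.8% and 37.4% were called in LNCaP at 24 h and 48 h, and 23% and 45.8% in PC3. CDT1, which licenses replication origins, rose by 1.31 ± 0.21 (adjusted p = 3.3e-05) in PC3 at 48 h and fell by 2.20 ± 0.21 (adjusted p = 6.5e-08) in LNCaP at 48 h. Its mean level in PC3 with Siomycin at 48 h, 7.74, lay above that with DMSO at 48 h, 6.43, and below that with DMSO at 24 h, 8.11. MCM7, a part of the replicative helicase, fell in PC3 at both times, with fold changes of -0.97 ± 0.14 (adjusted p = 5.5e-05) and -0.63 ± 0.14 (adjusted p = 0.0012). In the DMSO cultures of PC3, 13 of the 15 were lower at 48 h than at 24 h, with a median of -1.46, when 28.3% of all genes were called.

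The cyclins of later phases and the regulators of their kinase CDK1 made a list of 10 genes. All 10 were lower with Siomycin in LNCaP at each time, with medians of -1.43 at 24 h and -1.33 at 48 h, and 8 were lower in PC3 at 24 h, with a median of -0.64. In PC3 at 48 h 2 were higher and 4 lower, with a median of -0.25, while median centring gave 1 higher and 5 lower and a median of -0.56. The shares of all genes called were 20.8% and 37.4% in LNCaP at 24 h and 48 h, and 23% and 45.8% in PC3. CCNA2, the cyclin A2 gene, fell by 1.95 ± 0.09 in LNCaP at 24 h (adjusted p = 1.5e-11). CDC25B, a phosphatase that activates CDK1, fell in PC3, with fold changes of -1.07 ± 0.08 (adjusted p = 1.1e-08) at 24 h and -1.32 ± 0.08 (adjusted p = 7e-11) at 48 h. WEE1, the kinase that opposes it, rose by 0.95 ± 0.10 in PC3 at 48 h (adjusted p = 1.7e-07). The mean WEE1 level there was 7.83 with Siomycin, against 6.87 with DMSO at 48 h and 7.53 with DMSO at 24 h. Siomycin thus stood above both controls, but less far above the earlier one. The PC3 DMSO cultures also shifted with time on this list. From 24 h to 48 h, 8 of the 10 were called as falling and 0 as rising, with a median of -0.77, when 28.3% of all genes were called.

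The genes most like each member were found by Pearson's correlation over the 24 arrays after subtraction of each line's mean, as a description of arrays that share 8 groups. CCNE1 was most like CDK2 itself (r = 0.959) and GEMIN4 (r = 0.959), and CDK2 was most like GEMIN4 (r = 0.982) and KPNA2 (r = 0.977). CCND3 was nearest to CENPO (r = 0.972) and RFC5 (r = 0.963). CCND1 went with NREP (r = 0.943) and ACLY (r = 0.935), and CDK4 with CHAMP1 (r = 0.964) and H2AZ1 (r = 0.955). CDKN1B was nearest to WDR33 (r = 0.968) and EFNA1 (r = 0.960), and CDKN2D to PLEKHF1 (r = 0.941) and AVPI1 (r = 0.936). CDK6 had the weakest partners, MAGEE1 (r = 0.898) and UBE4B (r = 0.865), but its probe was above background on only 13 of the 24 arrays. Within the 8 genes, CCND3, CCNE1 and CDK2 formed a close trio with r between 0.94 and 0.96, CDK4 ran against CDKN1B (r = -0.87), and the 2 inhibitors had r = 0.68.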

How the data were processed

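Per the labels, total RNA of 24 samples was labelled and hybridised to Illumina bead arrays, 3 arrays in each of 8 groups. Per the file headers, the deposited scanner tables gave an intensity and a detection p-value for each of 47318 probes. The intensities are linear, with no background subtraction visible in their values. A further deposited table by the authors is on the log2 scale, and the submitters' processing notes name lumi without a version. Taking log2 of the intensities and quantile normalizing them, with no background step, gave back its values to within 5.12e-09, and it served as an alternative.

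Detection p-values were small for probes dimmer than background too. A probe therefore counted as above background where its p was under 0.01 and its intensity above the array's background centre, the median of probes with a p above 0.9. Centres lay between 97.67 and 116.4. Intensities were corrected with limma's normexp model (offset 16), logged and quantile normalized. The offset understates changes of dim probes. Probes above background on at least 3 arrays were kept (25215). The platform's annotation named 30119 probes, 30111 of them with 1 gene, of which 30072 were found in RefSeq by gene number. A gene was read from its brightest kept probe.

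Differences were tested with limma 3.58.1 in R 4.3.3 on 8 group means over all 24 arrays (16 residual degrees of freedom, 3.36 prior), two-sided, with Benjamini-Hochberg adjustment over 13344 genes within each of 11 contrasts. limma's calls were tested on simulated data with independent normal noise and far fewer changed genes than Siomycin called in either line. Normalization was not part of that simulation. The number of arrays limits the precision. All 10 member genes are named whatever their values. From each list up to 2 called rises and 2 called falls per comparison could be named, and for each member the 2 genes most like it. The members and lists were chosen with earlier results of these data known. Alternatives were no background correction, median centring, the authors' table, other probe filters, the mean of kept probes, a replicate block, 1 line alone, the 24 h DMSO control and each array left out. The chip of an array was not known here and was not fitted. Columns without a sample numbered 0.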

Additional observations from a re-analysis of the deposited data

Results flagged for a closer look

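The Siomycin effect of these genes differed between the lines or the times by a test of the difference itself (limma, adjusted over all genes). Each value is a difference of log2 fold changes.

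Between the lines, PC3 minus LNCaP, the 24 h effect differed for CCND3 (0.70, adjusted p = 0.0024), CCNE1 (0.78, adjusted p = 0.0041), CDK2 (1.00, adjusted p = 5e-04) and CDKN2D (0.80, adjusted p = 3.4e-04). At 48 h it differed for CCND1 (-0.46, adjusted p = 0.0034), CCND3 (0.93, adjusted p = 2.8e-05), CCNE1 (1.22, adjusted p = 9.5e-06), CDK2 (1.94, adjusted p = 2.6e-08), CDK6 (-0.67, adjusted p = 0.019) and CDKN2D (1.14, adjusted p = 1e-06). The 24 h CCNE1 call was lost with all kept probes averaged (adjusted p = 0.079). Median centring lost the 48 h CCND1 call (adjusted p = 0.15). The CDK6 value rests on LNCaP arrays nearly all below background. For CDK2, CCNE1 and CCND3 the 48 h effect in PC3 changes sign with the DMSO control.

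Between the times, 48 h minus 24 h, the effect differed in PC3 for CCNE1 (0.54, adjusted p = 0.027), CDK2 (1.14, adjusted p = 6e-05), CDK6 (-1.0, adjusted p = 0.0023), CDKN1B (0.69, adjusted p = 5e-04) and CDKN2D (0.90, adjusted p = 5e-05). In LNCaP it differed for CDKN1B (0.62, adjusted p = 0.0049) and CDKN2D (0.57, adjusted p = 0.011). Median centring lost the PC3 calls of CCNE1 (0.18, adjusted p = 0.67) and CDKN1B (0.27, adjusted p = 0.50). It also lost the LNCaP calls of CDKN1B (adjusted p = 0.32) and CDKN2D (adjusted p = 0.26). The 48 h effects of CDK2 and CCNE1 in PC3 change sign with the DMSO control.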

How the results depend on the processing

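Across the alternatives other than leaving out an array, 654 of 685 values of a member in a comparison were called in the same direction or uncalled in both settings, 23 lost the call, 5 gained it and 3 turned sign with a call. These counts hold both no background correction and the authors' table, whose values are the same to within 5.12e-09, so they are not separate checks. With single arrays left out, the first held for 701 of 720, 16 lost the call and 3 gained it. Sign changes among values uncalled in both settings numbered 8 of the 685 and 11 of the 720. The 3 that turned with a call were those in PC3 at 48 h against the 24 h DMSO arrays: CCND3 -0.36, CCNE1 -0.46 and CDK2 -1.11. There the control differs, and the DMSO cultures themselves differed between the times.

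Median centring changed the most counts. It left 2 members and 1411 genes called in PC3 at 24 h (5 and 3066 with quantile normalization), 1305 genes in LNCaP at 24 h (2779), 650 genes for the difference between lines at 24 h (1900), 3 members for the difference between times in PC3 (5), 0 members and 157 genes for that in LNCaP (2 and 1187), and 11 genes for DMSO over time in LNCaP (73). It gave 551 higher and 754 lower genes in LNCaP at 24 h (1396 and 1383), and 531 and 2243 for DMSO over time in PC3 (1922 and 1852), where the median of all genes moved to -0.13 from 0. The cause was not tested. Fitting 1 line alone, with fewer arrays, left 1 member and 615 genes for the difference between times in LNCaP and 19 genes for DMSO over time in LNCaP.

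With single arrays left out, PC3 at 24 h had 3 to 4 members called, and DMSO over time in LNCaP 28 to 47 genes. CDK6 in LNCaP at 24 h, mostly below background, passed without Siomycin replicate 1 (0.47, adjusted p = 0.0065). For CCND1, the difference between lines at 24 h passed without LNCaP Siomycin replicate 2 (-0.35, adjusted p = 0.029), and that between times in LNCaP without replicate 1 (0.38, adjusted p = 0.033). The labels' replicate numbers gave no sign of pairing: deviations of same-numbered arrays from their group means correlated at -0.15 to 0.04. With 3 arrays in a group, such deviations cannot exclude it. With the replicate numbers as a block, PC3 at 24 h had 6 members called, CDK6 being added (adjusted p = 0.049), and the other comparisons kept their count of members. Signals near background limit CDK6 in LNCaP and CCNE2.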
